A study of Mus musculus with 8 samples.

Results

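The respiratory chain genes of mouse kidney were examined 72 h after cisplatin. Members were the rows of the deposited gene count table that held 8 counts and whose symbol began with Nduf, Sdha to Sdhd, Uqcr, Cox4 to Cox8, Cox10 to Cox19, Atp5 or mt-, or was Cycs or Cyct. This name rule took 88 of the 35880 rows that could be used, 66 of them nuclear and 22 carried by the mitochondrial genome. A further 63 matching names stood in rows with 10 values, which could not be tied to the libraries, among them Cycs, Ndufs1, Cox5a, mt-Atp8 and mt-Nd4l, and these were not analysed here. By role, the nuclear members were 20 complex I subunits, 4 complex II subunits, 3 complex III subunits, 12 complex IV subunits, 11 ATP synthase subunits, 9 assembly factors, the ATP synthase-related gene Atp5s, the testis cytochrome c gene Cyct and 5 pseudogenes. The mitochondrially encoded members were 11 mRNAs, both rRNAs and 9 tRNAs.

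The respiratory chain passes electrons from NADH, through complex I, or from succinate, through complex II, to ubiquinone, and on through complex III and cytochrome c to complex IV, where oxygen is reduced to water. Complexes I, III and IV pump protons as they work, and ATP synthase, called complex V, makes ATP as the protons flow back. Most subunits are encoded in the nucleus and imported, while a few hydrophobic core subunits of complexes I, III, IV and V are read from the mitochondrial genome, and complex II is wholly nuclear. The proximal tubule of the kidney is rich in mitochondria because solute reabsorption there is driven by oxidative ATP production, and cisplatin, a platinum drug used against solid tumors, is taken up by that segment and injures it.

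Whole kidney RNA of 8 mice was sequenced. The labels give all mice as WT, with 4 kidneys as control (replicates 1, 2, 3 and 5) and 4 as cisplatin (replicates 1, 3, 4 and 6). The methods describe male C57/BL6J mice, with saline for the controls and cisplatin at 23 mg/kg, each given intraperitoneally. The labels do not say which library came from which animal, so the spread between these libraries may be partly technical. Counts per library, over the rows used, ran from 10953338 to 16701599. Treatment separated along the first principal component (73.6% of the variance). Along the next one (16%), a set made up of control 5, cisplatin 4 and cisplatin 6, here the second library set, lay apart from the other 5 libraries, here the first set. The Y-linked gene Kdm5d had 2 and 0 counts in cisplatin 1 and cisplatin 3 and 274 to 576 counts in the others, although the methods give only males. All 12 proximal tubule markers measured were lower after cisplatin (median log2 fold change -4.22), with a summed level of 31446 to 41660 CPM in controls and 1124 to 3109 CPM after cisplatin, and all 3 injured tubule markers (Havcr1, Lcn2 and Krt20) were higher. Other cell types varied. Neither podocyte marker passed (median 0.08). In the collecting duct 1 of 3 markers was lower and 1 higher (median -0.12), and 1 of 2 endothelium markers was lower (median -0.53). In the thick limb 1 of 2 markers was lower (median -1.81, neither overlapping), in the distal tubule 2 of 3 were lower (median -1.54), while 2 of 2 fibroblast markers (median 2.96) and 3 of 4 leukocyte markers were higher and the other leukocyte marker, Ptprc, was lower. In whole kidney RNA, fewer cells of a type, such as the proximal tubule, and less RNA of a gene per cell cannot be told apart, and the part of these marker changes in the results below was not tested.

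Promoter and transcript sequences are shown because nuclear respiratory factor 1 (NRF1), a transcription factor, is known for binding many nuclear respiratory chain promoters, and because mitochondrial mRNAs have unusual ends that matter for a poly(A) library. Of 61 nuclear members that are not pseudogenes, 49 were matched to RefSeq windows on GRCm38.p6 that run from 250 bases before a start site to 50 after it. The NRF1 letters, GCGCA and GCGC with any base between them, read on both strands, were found for 12 of 49 members (24.5%) and for 5.19% of all 27025 gene symbols with a window. The ETS-type letters CCGGAAG were found for 14 of 49 members (28.6%) against 9.93% of symbols, and the letters TCAAGGTCA, bound by estrogen-related receptors, for 2 of 49 (4.08%) against 0.466%. Over all 32851 single windows the shares were 4.6%, 8.86% and 0.423%. Of the members with a window that were lower after cisplatin, 3 of 16 held the NRF1 letters, and of the other tested members with a window 9 of 31 did. A match to these letters is a description and does not show binding. Upstream windows of Sdha, the flavoprotein of complex II (chr13:74350281-74350363, minus strand), Sdhd, a membrane anchor of complex II (chr9:50603894-50603953, minus strand), Cox6a1, the widely expressed 6a subunit of complex IV (chr5:115349041-115349145, minus strand), and Ndufa11, an accessory complex I subunit (chr17:56717677-56717736, plus strand), follow from 5′ to 3′ with the NRF1 letters in capitals.
Sdha: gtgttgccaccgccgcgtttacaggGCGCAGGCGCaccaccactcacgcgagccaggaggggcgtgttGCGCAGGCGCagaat
Sdhd: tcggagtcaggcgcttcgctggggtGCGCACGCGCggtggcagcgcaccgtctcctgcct
Cox6a1: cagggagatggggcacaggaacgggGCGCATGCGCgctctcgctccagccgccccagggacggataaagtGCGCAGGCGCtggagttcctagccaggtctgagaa
Ndufa11: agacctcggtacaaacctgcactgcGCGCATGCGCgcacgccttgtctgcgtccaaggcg

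The last 30 bases of 4 mitochondrial mRNAs in GENCODE M21 are printed next, with the stop codon, or the lone T that stands in its place, in capitals. The annotated mt-Cytb, mt-Nd4 and mt-Co3 transcripts have 1 base after their last whole codon, and in such mRNAs the stop codon is completed by polyadenylation.
mt-Co1: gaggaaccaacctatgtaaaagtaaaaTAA
mt-Cytb: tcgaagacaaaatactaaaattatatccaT
mt-Nd4: gtccaaaactaattacaggcctgacaataT
mt-Atp6: gtaagcctatatctacatgataatacaTAA

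Of the 88 members, 76 passed the expression filter and were tested, 59 nuclear and 17 mitochondrially encoded. By the quasi-likelihood test of edgeR, Benjamini-Hochberg adjusted over 9141 genes, 21 of the 59 nuclear members were lower after cisplatin and 1 was higher, against 22.6% of all genes tested that were lower and 26.4% that were higher. At a change of at least 2-fold as well, 8 nuclear members were lower and 1 was higher, against 15.7% and 19.2% of all genes tested. The nuclear members had a median log2 fold change of -0.52, all genes 0.08, and 51 of the 59 lay below 0, as did 46.8% of all genes. Cisplatin and control levels did not overlap, with cisplatin lower, in 21 nuclear members, and in 22.5% of all genes (46.3% in either direction). Scaling by the total library count in place of TMM factors moved the median of all genes from 0.08 to 0.64 and that of the nuclear members from -0.52 to 0.06, so the sign of the nuclear median turned, while its distance from all genes stayed at -0.59 beside -0.60. With that scaling 7 of the 59 nuclear members were lower and 4 higher. Of all 9141 genes, 11.9% were lower and 4365 were higher. The mitochondrial mRNAs had the larger decline, with 8 of 11 lower, all 8 at least 2-fold and without overlap, and a median log2 fold change of -1.40. Upper quartile scaling left 7 lower at 2-fold. Total library counts left 6 lower, 4 of them at 2-fold, with a median of -0.85. Summed with a nuclear copy described below, mt-Co2 fell by less than 2-fold (log2 ratio of means -0.81), while mt-Atp6 (-1.42) and mt-Nd4 (-1.53) fell by more.

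**Figure D1:**
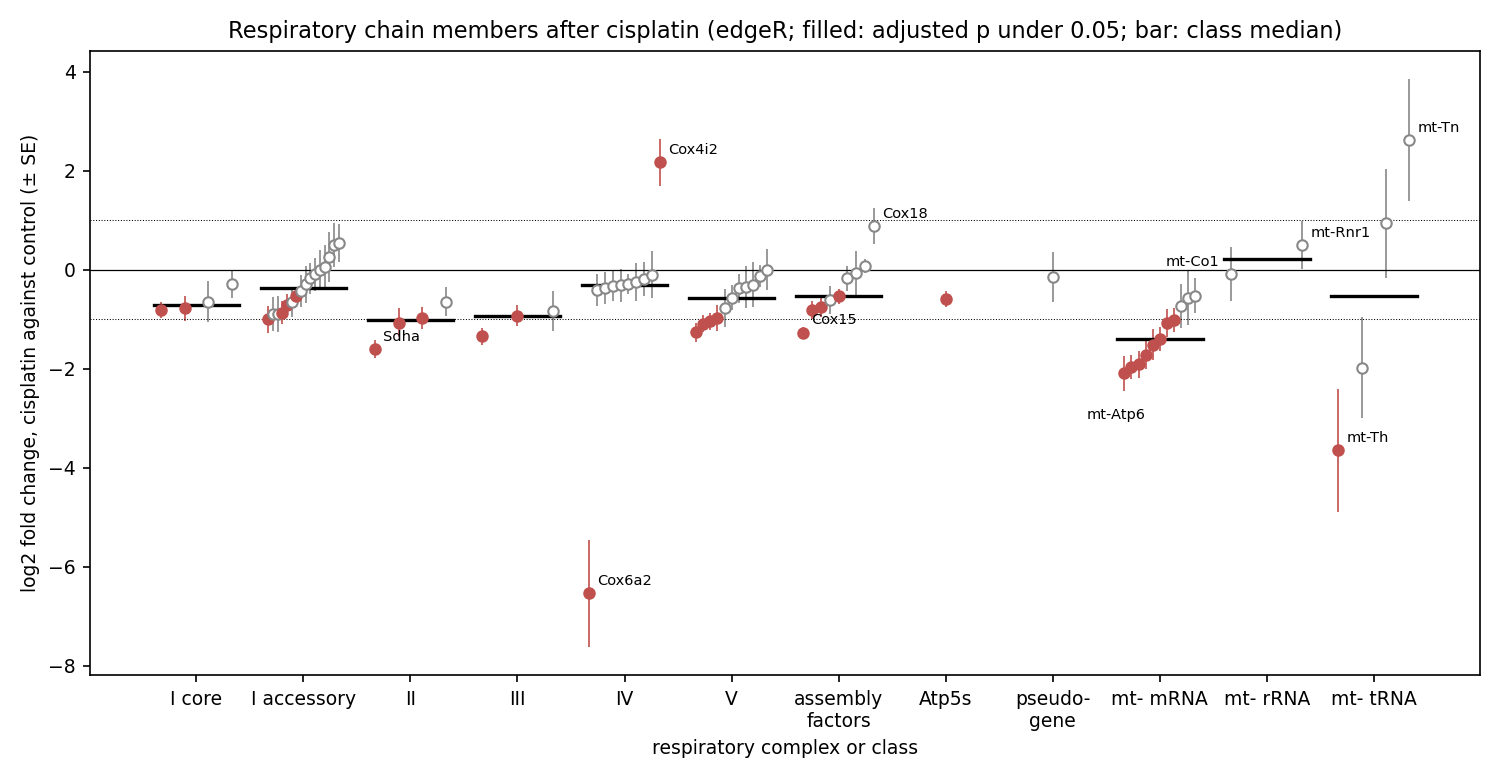
Log2 fold change of cisplatin against control (y axis, with its SE, TMM scaling) for the 76 tested members by complex or class (x axis), where filled points had an edgeR adjusted p under 0.05, bars are class medians and dotted lines mark a 2-fold change. The mt- mRNA median sits at -1.40, those of complexes II and III at -1.02 and -0.92, and Cox4i2 is the filled point above 0, while total library counts turn the medians of complex I and IV genes positive.

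Control 5 stood above the other 3 controls in 54 of the 59 tested nuclear members (91.5%, against 39.9% of all genes), by a median log2 difference of 0.92. Cisplatin 4 and 6 stood above cisplatin 1 and 3 in 44 of 59 (74.6%, against 36.7%). The second set thus held the higher values of most nuclear members in both groups. With the library set as a covariate, 45 nuclear members were lower and 2 higher (28.7% of all genes lower), and within the first set alone 40 were lower and 2 higher (27.6% of all genes lower). The set was defined by the second principal component of these same counts. Counts of members passing and adjusted p values from fits that use it are therefore descriptive and no independent test. Without control 5, 19 were lower and 3 higher (21.8% of all genes lower), but only 35 of 59 lay below 0 and the median was -0.17, beside 0.09 for all genes. Gene length moved with the set. The shortest quintile of all genes tested (57 to 1757 bases in the table's length column) had a median log2 difference of 0.27 between control 5 and the other controls, and the longest quintile (6604 bases or more) had -0.22. Between cisplatin 4 and 6 and cisplatin 1 and 3 the shortest quintile had 0.44 and the longest -0.44. The median log2 fold change of treatment was 0.31 in the shortest and -0.16 in the longest quintile. The nuclear members tested were short, with a median length of 1928 bases against 3589 for all genes and 27 of 59 in the shortest quintile. Their own set differences were 0.91 in controls and 0.71 after cisplatin (log2 values with 0.5 CPM added). Within the first set, Kdm5d had 2 and 0 counts in the cisplatin libraries and 274 to 576 in the controls. Y-linked counts and treatment therefore cannot be told apart in any comparison within that set, and the covariate fit rests in part on it. The part of length, library set and Y-linked counts in the treatment difference over all libraries was not tested.

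**Figure D2:**
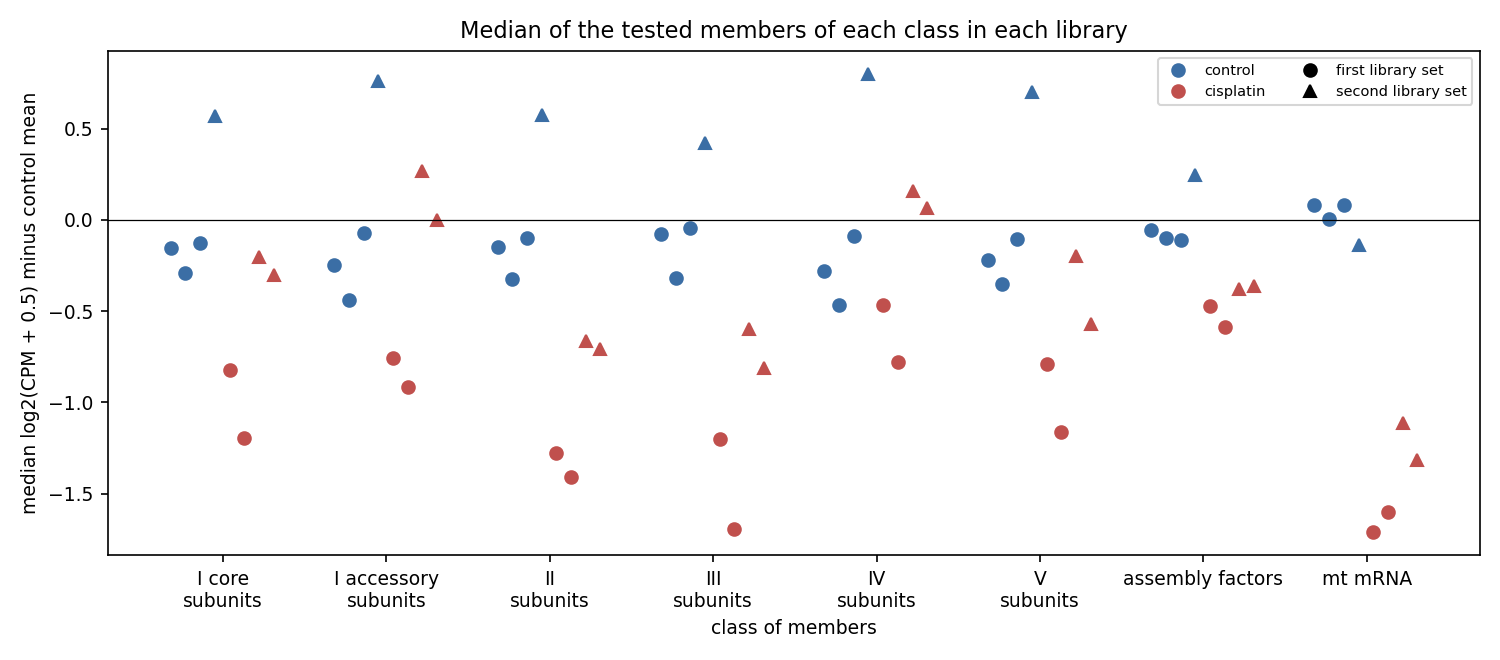
Median over the tested members of each class (x axis) of log2(CPM + 0.5) minus the control mean of the gene, 1 point per library, with circles for the first library set, triangles for the second, blue for control and red for cisplatin. Control 5 is the highest control in every nuclear class, and the 4 cisplatin libraries lie below all 4 controls in complexes II and III, the assembly factors and the mt mRNAs but not in complexes I, IV and V.

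Complex I oxidizes NADH. Of its 20 nuclear subunits, all tested, 6 were lower and none higher, against 22.6% of all genes tested that were lower and 26.4% higher. Their median log2 fold change was -0.48. With total library counts the median of all complex I genes turned to 0.06 and none was lower. Ndufv2, an iron-sulfur core subunit of the NADH-oxidizing arm, had 212, 219, 243 and 273 CPM (library-scaled counts with TMM factors) in controls and 143, 108, 150 and 139 CPM after cisplatin. Every cisplatin library was below every control, and the log2 fold change was -0.81 ± 0.16 (SE, adjusted p = 0.00235). Ndufv1, which binds FMN and NADH, and Ndufs3, a further core subunit, did not pass, at -0.65 ± 0.41 and -0.29 ± 0.28 on the log2 scale. Both had control 5 far above the rest, Ndufv1 at 740 CPM against 264 to 298.

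The 16 accessory subunits of complex I, which surround and stabilize the core, had 4 lower and a median log2 fold change of -0.36. That share was close to the 22.6% of all genes tested that were lower. The lowest was Ndufa9, at 228, 202, 227 and 393 CPM in controls and 119, 84.6, 169 and 154 CPM after cisplatin (-1.0 ± 0.27, adjusted p = 0.0134 by edgeR). The highest was Ndufa7, at 62.3, 54.8, 73.3 and 141 CPM in controls and 73.5, 75.1, 177 and 156 CPM after cisplatin (0.54 ± 0.38, edgeR adjusted p = 0.265). Its 2 groups overlapped, the second set was higher in both, and within each set every cisplatin library lay above every control (log2 ratios of means 0.23 and 0.24). Ndufb11, the accessory subunit most abundant per length over all 8 libraries at 214 CPM per kb in controls and 135 CPM per kb after cisplatin, did not pass (-0.66 ± 0.29). Ndufb5, Ndufc2 and Ndufs4, named here because they passed, had log2 fold changes of -0.86, -0.72 and -0.52.

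Complex II oxidizes succinate and is shared with the citric acid cycle. Of its 4 subunits 3 were lower (75.0%, against 22.6% of all genes tested). Sdha (chr13:74322254-74350280, minus strand), which carries the FAD and the succinate site, had 1353, 1285, 1297 and 1649 CPM in controls and 487, 359, 460 and 530 CPM after cisplatin. The groups were far apart, with cisplatin at 32.9% of control, a log2 fold change of -1.61 ± 0.19 and an edgeR adjusted p of 0.000115. The ratio of means was alike within the sets, at -1.63 in the first and -1.74 in the second. Sdhb, the iron-sulfur subunit, fell from 386 ± 145 to 184 ± 56.9 CPM (-1.07 ± 0.30, edgeR adjusted p = 0.0139) and Sdhc, a membrane anchor with heme, fell from 535 ± 127 to 272 ± 57.4 CPM (-0.98 ± 0.22, edgeR adjusted p = 0.00497). Sdhd, the other anchor, had 302, 279, 303 and 563 CPM in controls and 211, 150, 281 and 286 CPM after cisplatin and did not pass (-0.64 ± 0.28, edgeR adjusted p = 0.0882). With the library set, which was drawn from these counts, as a covariate the edgeR adjusted p of Sdhd was 0.000565. Sdhaf2, which inserts FAD into Sdha, was at 53.2 ± 5.21 CPM in controls and 56.3 ± 4.79 CPM after cisplatin (0.08 ± 0.14).

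Complex III hands electrons from ubiquinol to cytochrome c. Uqcrc2 (chr7:120635176-120659524, plus strand), a core protein, had 664, 667, 670 and 771 CPM in controls and 256, 213, 300 and 320 CPM after cisplatin. It lay in cisplatin at 39.3% of control, with no overlap (-1.35 ± 0.17, edgeR adjusted p = 0.000201). Its partner Uqcrc1 fell from 784 ± 177 to 413 ± 76.2 CPM (-0.92 ± 0.21, edgeR adjusted p = 0.00529). Uqcrfs1, the Rieske iron-sulfur protein, had 332, 276, 330 and 709 CPM in controls and 166, 116, 310 and 333 CPM after cisplatin. The groups overlapped and the test was not passed (-0.83 ± 0.40, edgeR adjusted p = 0.108). The edgeR fit with the set, which was drawn from these counts, as a covariate gave an adjusted p of 8.6e-05.

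Complex IV reduces oxygen. Of its 12 nuclear subunits, Cox7b2 and Cox8c had no counts, and of the 10 tested 1 was lower and 1 higher. Among all genes tested 22.6% were lower and 26.4% higher. The 10 subunits had a median log2 fold change of -0.30. With total library counts the median turned positive for complex IV as a whole (0.25, with its assembly factors). The widely expressed Cox4i1, Cox6a1 and Cox8a did not pass, at -0.24 ± 0.38, -0.19 ± 0.35 and -0.40 ± 0.32. Cox8a was the most abundant nuclear subunit of the complex per length, at 1085 CPM per kb in controls and 820 CPM per kb after cisplatin. Cox4i1 had 520, 475, 563 and 1383 CPM in controls and 522, 383, 819 and 765 CPM after cisplatin. Without control 5 its log2 fold change was 0.25, and with the library set, drawn from these counts, as a covariate it was -0.42 (edgeR adjusted p = 0.0467).

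The pair of complex IV subunits that passed were scarce isoforms. Cox4i2 (chr2:152754173-152765037, plus strand), the isoform of subunit 4 known from lung and for its response to low oxygen, had 2, 5, 8 and 10 counts in controls and 56, 20, 36 and 36 after cisplatin. This was 0.177 to 0.786 CPM against 1.10 to 2.86 CPM, without overlap (2.17 ± 0.48, edgeR adjusted p = 0.00433), or 0.287 to 0.488 counts per 100 of Cox4i1 after cisplatin beside 0.0341 to 0.108 in controls. Cox6a2 (chr7:128205435-128206387, minus strand), the heart and skeletal muscle isoform of subunit 6a, had 44, 20, 66 and 278 counts in controls and 0, 1, 1 and 3 after cisplatin. With every cisplatin library at or under 3 counts, its level was at least 34.0-fold lower, taking 3 counts as 0.238 CPM (edgeR adjusted p = 0.000874), and at least 14.7-fold lower without control 5. Itgad is annotated across Cox6a2 in the other orientation, and whether counting used strand is not given in the sources used here. Within-library ratios of isoforms were compared in 4 pairs by a two-sided exact permutation test, for which 0.0286 is the smallest p that 4 against 4 libraries allow. The log2 ratio after cisplatin minus that in controls was 1.89 for Cox4i2 over Cox4i1 and -4.18 for Cox6a2 over Cox6a1 (exact p = 0.0286 and 0.0571 after Benjamini-Hochberg adjustment over the 4 pairs, in each case), so neither passed. Each exact p was already the smallest possible, and the adjusted p could fall only if a further pair also reached it. Not passing was therefore set by the design. Both log2 differences were compressed by the 3 counts added to each gene, and with 0.5 added they were 2.34 and -5.65. The 3 genes of subunit c, which encode the same mature protein, gave 0.19 for Atp5g1 over Atp5g3 (exact p = 0.486, adjusted 0.486) and 0.57 for Atp5g2 over Atp5g3 (exact p = 0.114, adjusted 0.152).

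ATP synthase makes ATP in a catalytic head turned by a membrane ring. Of its 11 nuclear subunits 4 were lower (36.4%, against 22.6% of all genes tested), and the median log2 fold change was -0.56. Atp5a1, the alpha subunit of the catalytic head, had 3303, 3047, 3193 and 4254 CPM in controls and 1529, 1158, 1554 and 1501 CPM after cisplatin. No values overlapped (-1.26 ± 0.20, edgeR adjusted p = 0.000671), and it was the nuclear member most abundant per length in controls, at 1100 CPM per kb, but not after cisplatin, at 458 CPM per kb. The other 3 that passed, named for that reason, were Atp5f1, the b subunit of the stalk, at -1.09 ± 0.17, Atp5c1, the gamma subunit of the rotor, at -1.04 ± 0.17, and Atp5b, the catalytic beta subunit, at -0.97 ± 0.26. The membrane ring genes Atp5g1, Atp5g2 and Atp5g3 did not pass, at -0.56, -0.13 and -0.78, nor did Atp5k, the small e subunit, at 0.01 ± 0.42. Atp5s, related to ATP synthase as coupling factor B, was lower (-0.59 ± 0.17, edgeR adjusted p = 0.0157), though not without control 2 (adjusted p = 0.0588).

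Of the 9 assembly factors 4 were lower (44.4%, against 22.6% of all genes tested) and none higher, with a median log2 fold change of -0.53. Cox15 (chr19:43733254-43753000, minus strand), which makes heme A for complex IV, had 178, 160, 179 and 170 CPM in controls and 65.7, 73.4, 73.4 and 71.9 CPM after cisplatin. It had the smallest adjusted p of all members (-1.27 ± 0.12, edgeR adjusted p = 4.09e-05), and control 5 did not stand apart in it. Cox10, which makes heme O in the step before, fell from 42.3 ± 2.09 to 25.04 ± 6.41 CPM (-0.75 ± 0.20, edgeR adjusted p = 0.0108). Cox18, which helps insert the mt-Co2 protein into the membrane, had 14.3, 14.4, 15.7 and 31.7 CPM in controls and 22.2, 22.4, 46.5 and 49.1 CPM after cisplatin (0.88 ± 0.36, edgeR adjusted p = 0.0696). Each set on its own had the higher values after cisplatin. With the set, drawn from these counts, as a covariate the log2 fold change of Cox18 was 0.59 (edgeR adjusted p = 0.00117). Among complex I factors, Ndufaf2 and Ndufaf7 were lower (-0.81 ± 0.19 and -0.53 ± 0.15), and Ndufaf1, Ndufaf5 and Ndufaf8 did not pass (-0.61, -0.17 and -0.06).

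**Figure D3:**
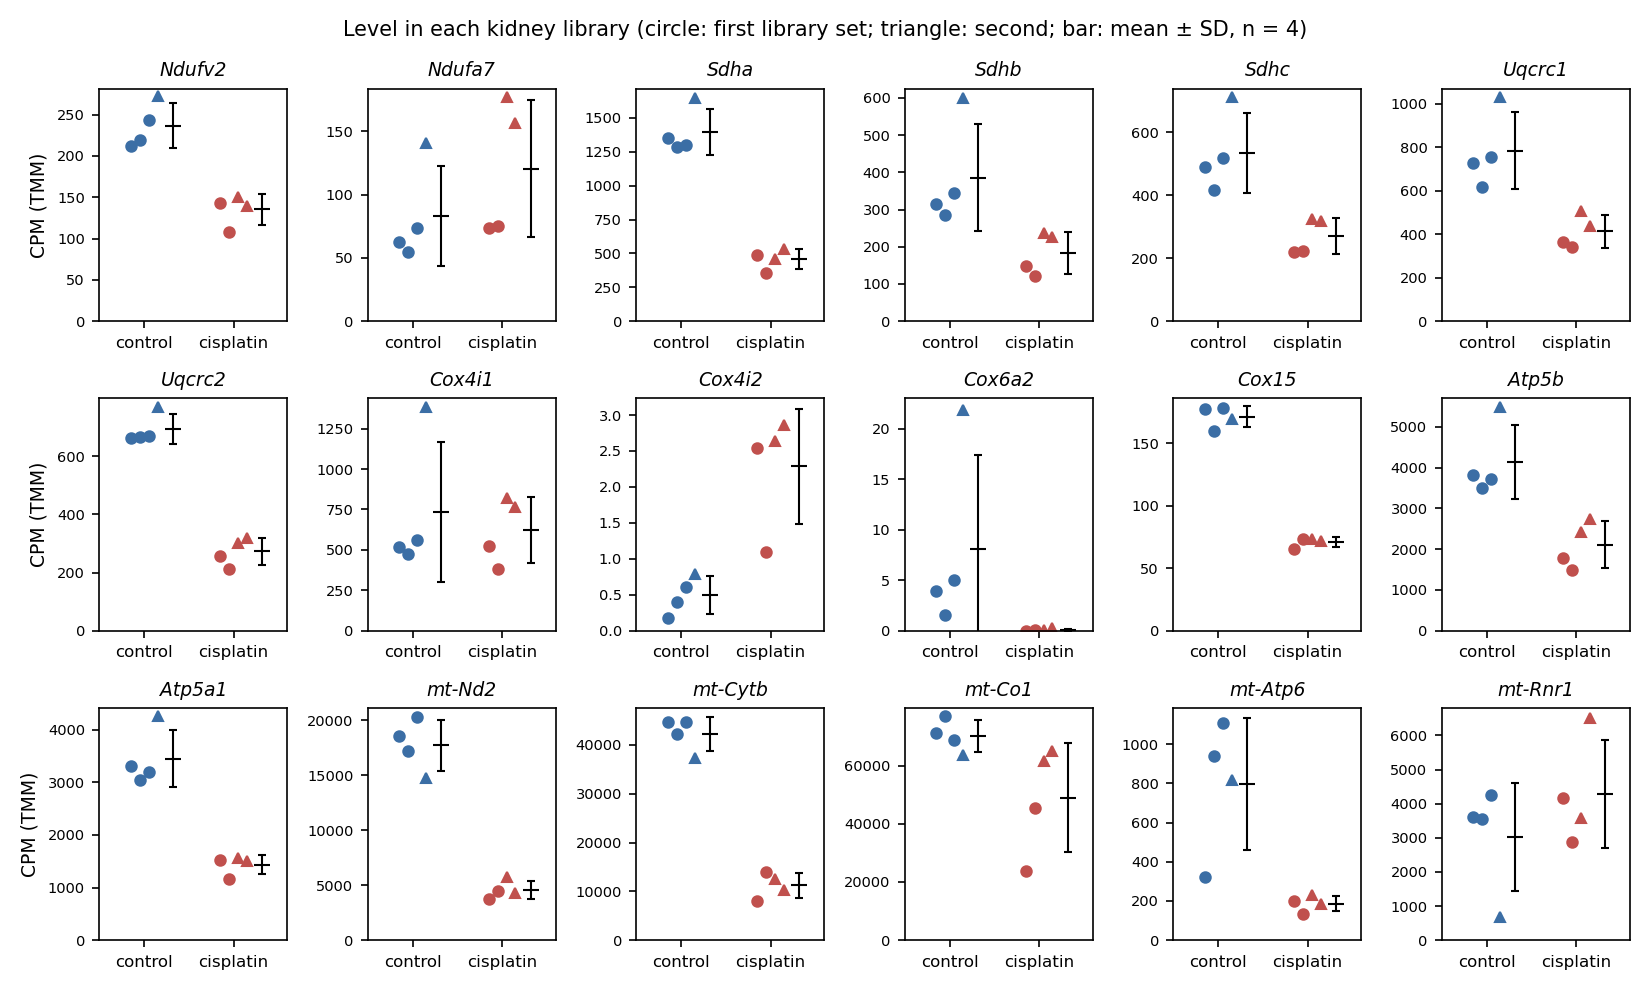
TMM-scaled CPM of 18 members in each library (linear y axes from 0), with circles for the first library set, triangles for the second and bars for the mean ± SD of 4 libraries. Sdha, Uqcrc2, Cox15, mt-Nd2 and mt-Cytb separate by treatment in every library, whereas Ndufa7, Cox4i1 and mt-Co1 overlap, and control 5 is the outlying high control in many nuclear members and the low one in mt-Rnr1.

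The mitochondrial genome encodes core subunits of complexes I, III, IV and V, and all 11 of its mRNAs in the rows used had a fitted change below 0. Complex I held 6 of them. mt-Nd2 (chrMT:3914-4951) had 18607, 17258, 20296 and 14735 CPM in controls and 3747, 4480, 5753 and 4273 CPM after cisplatin, 25.7% of control (-1.96 ± 0.24, edgeR adjusted p = 0.000168). mt-Nd5, mt-Nd4, mt-Nd6 and mt-Nd1 were also lower without overlap, at -1.72 ± 0.29, -1.52 ± 0.31, -1.40 ± 0.25 and -1.08 ± 0.29. mt-Nd6 is the only mRNA of the other DNA strand, and it overlaps mt-Nd5, so the 2 cannot be told apart over that stretch without strand. mt-Cytb (chrMT:14145-15288), the cytochrome b of complex III, had 44702, 42277, 44609 and 37273 CPM in controls and 8082, 13886, 12596 and 10364 CPM after cisplatin (-1.91 ± 0.28, edgeR adjusted p = 0.000395). Per length it was second in controls at 36902 CPM per kb, after mt-Co1 at 45416 CPM per kb.

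mt-Co1 (chrMT:5328-6872), the catalytic subunit of complex IV, behaved otherwise. It had 71059, 77134, 68813 and 63666 CPM in controls and 23866, 45370, 61410 and 64951 CPM after cisplatin. The groups overlapped (-0.52 ± 0.36, edgeR adjusted p = 0.253), and the difference was -1.06 as a log2 ratio of means within the first set and -0.01 within the second. Chosen after the values were seen, its share of the counts of the 11 mt- mRNAs in the rows used was 35.0%, 37.2%, 33.1% and 36.8% in controls and 43.7%, 51.6%, 54.5% and 61.3% after cisplatin. Every cisplatin library was above every control, and the ratio of medians was 1.36 in the first set and 1.57 in the second. Over the same libraries the share of mt-Cytb was 20.4% to 22.0% in controls and 9.79% to 15.8% after cisplatin. Shares within a library do not depend on scaling between libraries, but they are bound together, since a larger share of mt-Co1 leaves less for the rest. They also depend on how reads that match nuclear copies of mt-Atp6, mt-Co2, mt-Co3, mt-Nd3 and part of mt-Nd4 were counted. How far this moves the shares was not tested.

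**Figure D4:**
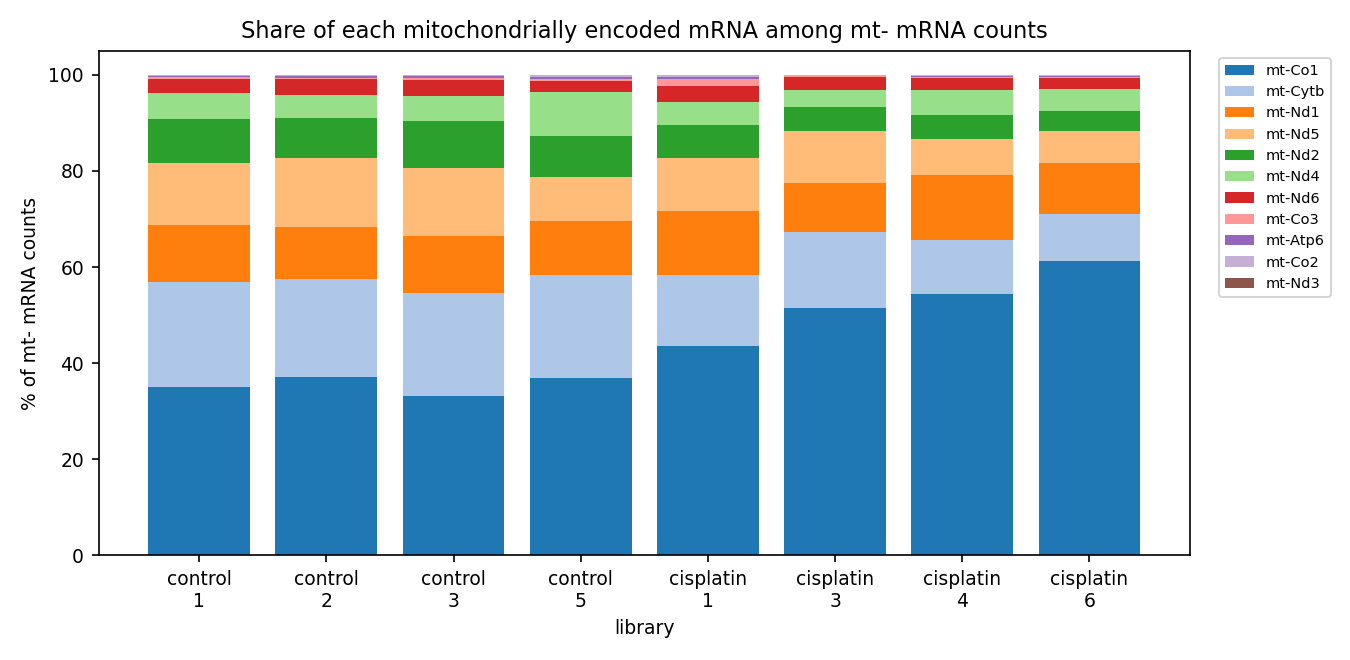
Stacked bars give the share of each of the 11 mt- mRNAs among the mt- mRNA counts of each library, in percent. The mt-Co1 segment runs from 33.1% to 37.2% in the controls and from 43.7% to 61.3% after cisplatin, while mt-Cytb and mt-Nd2 shrink and mt-Co3, mt-Atp6, mt-Co2 and mt-Nd3 are thin slivers in all 8 libraries. These last genes have near-identical nuclear copies, so their segments depend on how reads that match both places were counted.

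mt-Atp6, mt-Co2, mt-Co3 and mt-Nd3, which lie side by side on the mitochondrial genome, had far lower levels per length than the other 7 mRNAs, at 1170, 793, 747 and 87.6 CPM per kb in controls against 8609 CPM per kb or more. In GENCODE M21 they have near-identical nuclear copies next to each other on chromosome 1 (24611535 to 24615565, minus strand, for those in the rows used). Gm10925 matches 678 of 681 bases of mt-Atp6, Gm28661 matches 681 of 684 bases of mt-Co2 and Gm28437 matches 783 of 784 bases of mt-Co3, each at 100% identity. Gm28438 matches mt-Nd3 at 99.7% but was not among the rows used, and Gm28439 is identical to 63.6% of mt-Nd4. The copies of mt-Atp6, mt-Co2 and mt-Co3 had at least 3317 counts in every library, and Gm10925 had 8359 to 10898 counts in controls and 4513 to 7416 after cisplatin (-0.95 ± 0.19, edgeR adjusted p = 0.00249). How reads that match both places were counted is not given in the sources used here, so the values of these 4 genes are uncertain. The same holds for mt-Nd4 over its matching part, and summed with Gm28439 it gave a log2 ratio of means of -1.53 without overlap. mt-Atp6 was lower (-2.09 ± 0.35, edgeR adjusted p = 0.000974) with 323, 940, 1107 and 818 CPM in controls and 198.5, 134, 228 and 186 CPM after cisplatin. Summed with Gm10925 it was at 1566 ± 354 CPM in controls and 585 ± 105 CPM after cisplatin, a log2 ratio of means of -1.42, and still did not overlap. mt-Co2 was lower as well (-1.02 ± 0.24, edgeR adjusted p = 0.00615), and summed with Gm28661 gave a log2 ratio of -0.81 without overlap. mt-Co3 did not pass (-0.73 ± 0.45) with cisplatin 1 at 797 CPM against 180 to 241 CPM in the other cisplatin libraries, and without that library it passed (-1.52, adjusted p = 0.000347). Summed with Gm28437 over all libraries it gave a log2 ratio of means of -0.79, and the groups overlapped. mt-Nd3 had 147 to 835 counts in controls and 175 to 464 after cisplatin and did not pass (-0.57 ± 0.55).

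The mitochondrial rRNAs did not follow the mRNAs. The labels describe a poly(A) kit, so rRNA and tRNA counts may depend on how such RNAs were captured, which was not tested. mt-Rnr1, the small-subunit rRNA, had 3601, 3540, 4260 and 693 CPM in controls and 4175, 2874, 3590 and 6511 CPM after cisplatin (0.50 ± 0.49, edgeR adjusted p = 0.42), and mt-Rnr2, the large-subunit rRNA, had -0.08 ± 0.55. Counts of both rRNAs per 100 mt- mRNA counts were 5.56, 6.20, 7.49 and 1.06 in controls and 24.3, 10.3, 7.46 and 13.4 after cisplatin. Cisplatin 4, at 7.46, lay just under control 3, at 7.49, and control 5 was the lowest of all. Of the 9 tRNAs in the rows used, 4 passed the filter. mt-Th, the histidine tRNA, was lower (-3.65 ± 1.24, edgeR adjusted p = 0.0341) at 93, 204, 3 and 60 counts in controls and 0, 20, 17 and 0 after cisplatin, but the groups overlapped and the call was lost without control 1, control 2, cisplatin 1 or cisplatin 6. The asparagine tRNA mt-Tn had 108, 207, 0 and 130 counts in controls and 31, 349, 1445 and 1233 after cisplatin, with cisplatin 4 and 6 far above the rest, and did not pass (2.62 ± 1.23, edgeR adjusted p = 0.104). mt-Ty and mt-Tl2 did not pass either, at 0.94 and -1.98.

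The nuclear and mitochondrial sides were set against each other within each library. Shares here are of the counts in the rows used, which leave out 15 mt- names. The 22 mt- members together took 17.9%, 18.8%, 18.3% and 13.7% in controls and 8.95%, 12.1%, 13.97% and 13.8% after cisplatin. Cisplatin 4 and 6 overlapped control 5, and within the second set the ratio of medians was 1.01, while it was 0.576 within the first. Nuclear members gave 9.51, 8.38, 9.37 and 18.8 counts per 100 mt- counts in controls and 17.1, 9.85, 13.7 and 13.4 after cisplatin. All 4 cisplatin values lay above the 3 controls of the first set, but control 5 was the highest of all, and the ratio of medians was 1.44 within the first set and 0.723 within the second. As a share of the counts outside the mt- members in the rows used, the nuclear members were at 1.94% to 2.98% in controls and 1.36% to 2.22% after cisplatin.

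**Figure D5:**
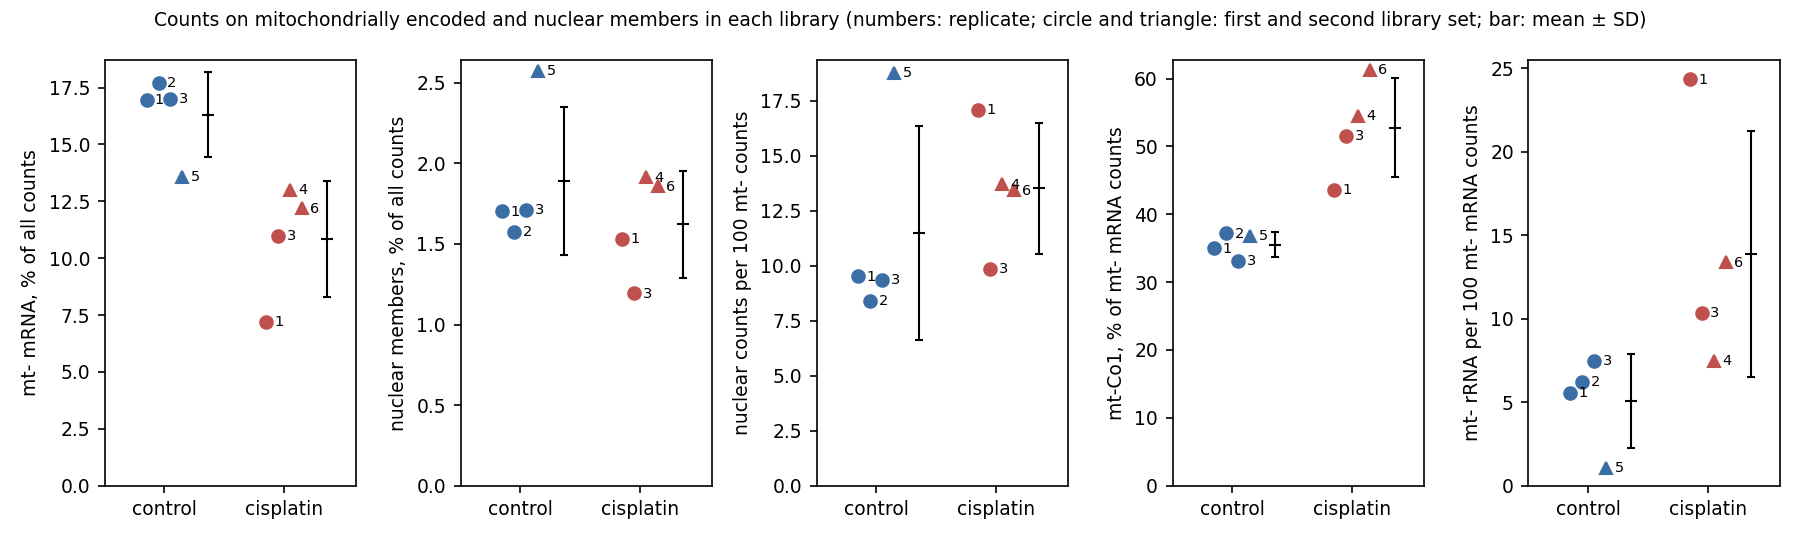
Values per library (y axes from 0), numbered by replicate: mt- mRNA and nuclear members in percent of all counts in the rows used, nuclear counts per 100 mt- counts, mt-Co1 in percent of mt- mRNA counts and mt- rRNA per 100 mt- mRNA counts, with circles for the first library set, triangles for the second and bars for mean ± SD. The mt-Co1 share does not overlap between treatments, and control 5 is the highest for the nuclear share (2.57%) and the lowest for mt- rRNA (1.06).

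Other genes that build or feed the chain were taken from hand-written lists. Of 42 listed genes for mitochondrial DNA expression and mitochondrial biogenesis, 24 were in the rows used and tested, with 11 lower, 1 higher and a median log2 fold change of -0.44. Of all genes tested 22.6% were lower and 26.4% higher, with a median of 0.08, and this background applies to each of these lists. Grsf1 and Fastkd2, RNA-binding proteins of the mitochondrial RNA granule, fell (-1.19 ± 0.15 and -1.31 ± 0.17, edgeR adjusted p = 0.000171 and 0.000196), as did Esrrg and Ppargc1a, a nuclear receptor and a coactivator of respiratory genes (-2.27 ± 0.42 and -1.48 ± 0.49, edgeR adjusted p = 0.00176 and 0.0311). Pprc1, a coactivator related to Ppargc1a, rose from 38.1 ± 2.61 to 79.1 ± 11.6 CPM (1.06 ± 0.15, edgeR adjusted p = 0.000348). The mitochondrial DNA polymerase Polg and the helicase Twnk did not pass, each at 0.25. Of 15 tested assembly factors outside the name rule, 7 were lower and none higher, with a median of -0.26. The lowest was Nubpl, which delivers iron-sulfur clusters to complex I, at -1.72 ± 0.27 (edgeR adjusted p = 0.000654), and the highest was Higd1a at 0.39 ± 0.27. Of 12 genes for ubiquinone synthesis or for electron entry beside complexes I and II, 6 were lower and none higher, with a median of -0.46. Chdh, the choline dehydrogenase, was the lowest, at 772 ± 42.7 CPM in controls and 97.5 ± 41.8 CPM after cisplatin (-2.99 ± 0.30, edgeR adjusted p = 5.4e-05), followed by Coq9, needed for ubiquinone synthesis (-1.65 ± 0.19), and Etfa, which brings electrons from fatty acid oxidation (-1.56 ± 0.19).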

How the data were processed

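Kidney RNA of 4 control and 4 cisplatin libraries was analysed, grouped by the treatment label. The authors deposited a table of raw read counts per gene, with a gene length column also made by the authors. The submitters' processing notes name fastp, HISAT2 and GRCm38, and the counting tool, annotation and strand setting are not given in the sources used here. The labels describe a VAHTS poly(A) kit with a U-labelled second strand, whereas the methods name a GEXSCOPE kit. Rows with 10 values and 2 unnamed columns of values were left out, because they could not be tied to the libraries.

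Counts were tested in R 4.3.3 with edgeR 4.0.16 (filterByExpr, TMM factors, glmQLFit and glmQLFTest, Benjamini-Hochberg adjustment over all tested genes), and an adjusted p under 0.05 passed. The SE of a log2 fold change was its size divided by the square root of F. Isoform ratios were compared by exact permutation with 3 counts added to each gene (0.5 as an alternative). Alternatives were RLE, upper quartile and total count scaling, mt- genes out of the scaling, other filters, a test against a 2-fold change (glmTreat), a replicate block, the library set as a covariate or the first set alone, each library left out, and DESeq2 1.42.0 (limma 3.58.1 was loaded with edgeR). The mt-Co1 share, the mt- rRNA per mRNA and the Cox6a2 bound without each control were added after seeing the data. Nuclear copies were found by blastn 2.17.0 at 95% identity over at least 50% of the gene. The fit was tested on simulated data with equal numbers of raised and lowered genes and no library set. That test does not bear on the choice of scaling or on the library sets.

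The members and lists were chosen with earlier results of these data known. Named genes were, in each complex and role, the tested members with the lowest and highest log2 fold change and the one most abundant per length, every member of a class of 6 or fewer, the isoform pairs and the mt- mRNAs, rRNAs and tested tRNAs. A gene that this rule names is not reported here. At 10953338 to 16701599 counts per library, 3 counts, taken as the floor, are 0.180 to 0.274 CPM. Floors cover counting error only.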

Additional observations from a re-analysis of the deposited data

Results flagged for a closer look

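Among 110 groups of 4 libraries tested by Dixon's criterion at its 95% critical value, 18 had a library whose gap to the nearest other, as a share of the range, exceeded it. Chance alone gives such a library in about 5% of groups. In 16 of the 18 the library was control 5, above the other 3 controls.

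In complex I, control 5 stood alone at 740 CPM for Ndufv1, 275 CPM for Ndufs3 and 393 CPM for Ndufa9, and at 21.9 CPM for the assembly factor Ndufaf5 and 36.6 CPM for Ndufaf8. In complexes II and III it stood at 563 CPM for Sdhd, 771 CPM for Uqcrc2 and 709 CPM for Uqcrfs1. In complex IV it stood at 1383 CPM for Cox4i1, 21.9 CPM for Cox6a2 and 31.7 CPM for the assembly factor Cox18, and in ATP synthase at 1265 CPM for Atp5g3 and 97.5 CPM for Atp5k. The same library stood alone for the nuclear members together, at 2.57% of all counts in the rows used, 2.98% of those outside the mt- members and 18.8 counts per 100 mt- counts.

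In the cisplatin group, cisplatin 3 was alone and low for Atp5a1, at 1158 CPM, and cisplatin 1 was alone and high for mt-Co3, at 797 CPM. Reads of mt-Co3 cannot be told apart from those of its nuclear copy Gm28437 over most of its length.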

How the results depend on the processing

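Replicate numbers 1 and 3 occur in both groups, which gives only 2 pairs, and the deviations of same-numbered libraries correlated at 0.25 and 0.28, where cisplatin 3 correlated best with its own number and cisplatin 1 better with control 2 (0.36), so pairing was not established. With the replicate block on those pairs, 39 nuclear members were lower, against 24.8% of all genes, and 2 higher (18 lower at 2-fold), with 16 lower in complex I, 7 lower and 2 higher in complex IV and 9 lower in complex V, and the sign turned for Atp5k (-0.20), Ndufaf5 (0.24), mt-Rnr1 (-0.18) and mt-Ty (-1.93). The library set as a covariate gave 45 lower, against 28.7% of all genes, and 2 higher (16 lower at 2-fold), 18 lower in complex I, 10 lower and 2 higher in complex IV, 10 lower in complex V, and values of -0.25 for Atp5k, 0.55 for mt-Rnr2 and -0.66 for mt-Ty. The first set alone gave 40 lower, against 27.6% of all genes, and 2 higher (18 lower at 2-fold), 16 lower in complex I, 8 lower and 2 higher in complex IV, 9 lower in complex V, and values of -0.17 for Atp5k, 0.20 for Ndufaf5, -0.17 for mt-Rnr1 and -2.29 for mt-Ty. Total library counts, which moved the median of all genes to 0.64, gave 7 of 59 nuclear members lower, against 11.9% of all genes, and 4 higher (2 lower and 3 higher at 2-fold). They also gave 4 mt- members lower at 2-fold, 0 lower and 1 higher in complex I, 1 lower and 1 higher in complex II, 1 lower in complex III, 2 higher in complex IV and 3 lower in complex V. The sign turned there for Atp5g1 (0.021), Atp5g2 (0.43), Cox4i1 (0.33), Cox6a1 (0.36), Cox8a (0.15), Ndufaf5 (0.42), Ndufaf7 (0.035), Ndufaf8 (0.49), Ndufs3 (0.27), mt-Co1 (0.013) and mt-Rnr2 (0.48). A test against a 2-fold change left 3 of 59 nuclear and 4 of 17 mt- members lower, with 0 in complex I, 1 in complex II, 0 in complex III and 0 in complex V, as that test asks for more. By the same test 8.78% of all genes were lower. Upper quartile scaling gave 2 higher nuclear members, 2 in complex IV, and 0.013 for Ndufaf8. Without a filter 2 nuclear members, 2 in complex IV, and 1 mt- member (1 at 2-fold) were higher, and with at least 10 counts in every library Cox4i2 was not tested and 0 were higher. RLE factors gave -0.010 and DESeq2 -0.0086 for Atp5k. Within the second set the nuclear to mt- ratio was 0.723 (1.44 over all libraries) and the mt- share ratio 1.01 (0.717 over all), and without the most abundant member of each side the latter was 0.530. Leaving out each library in turn gave 19 to 23 nuclear members lower, 1 to 3 (without control 5) higher, 5 (without cisplatin 3) to 14 (without control 2 or cisplatin 4) lower at 2-fold and 1 to 2 higher at 2-fold, 0 to 1 mt- members higher (0 to 1 at 2-fold), 0 to 1 higher in complex I and 1 to 2 in complex IV. Over these fits 19.4% (without control 3) to 23.4% (without cisplatin 3) of all genes were lower. The log2 values ran from -0.24 to 0.074 for Atp5g2, -0.22 to 0.51 for Atp5k, -0.41 to 0.25 for Cox4i1, -0.40 to 0.041 for Cox6a1, -0.37 to 0.020 for Ndufaf5, -0.35 to 0.44 for Ndufaf8, -0.92 to 0.12 for mt-Nd3 and -0.45 to 0.18 for mt-Rnr2. The isoform differences ran from 1.72 to 2.06 for Cox4i2, -4.51 to -3.71 for Cox6a2 and 0.34 to 0.75 for Atp5g2 over Atp5g3, and without cisplatin 1 the adjusted exact permutation p of all 3 was 0.0381. For all changes named here other than the 2-fold test and the filter, the cause was not tested. The first set alone and the replicate block compare cisplatin 1 and 3 with controls, where treatment and Y-linked counts cannot be told apart. The library set was drawn from these same counts, so the results of fits that use it are descriptive. Counts of 10 or fewer lay behind Cox4i2 in controls and Cox6a2 after cisplatin.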
